A study of Mus musculus with 12 samples.

Results

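The 4 ligand genes studied here of the bone morphogenetic protein (BMP) pathway, Bmp2, Bmp4, Bmp5 and Bmp7, and 6 of its target genes, Id1, Id2, Id3, Smad6, Smad7 and Msx2, were followed in mouse gastruloids. These 10 genes were taken by symbol from the 55141 genes in the deposited count table. Each symbol matched a single Ensembl identifier, and all 10 passed the filter on low counts in every comparison. Gastruloids are aggregates of mouse embryonic stem cells, here of the 129/SVEV strain, which lengthen along a main axis as they grow. They were seeded at 300 cells per well, received a pulse of the Wnt agonist CHIR99021 (CHIR), and were placed in a dextran-PEG hydrogel either at 72 h or at 96 h. The gel was at 1.0 mM or 1.5 mM, and all 4 groups were released with dextranase and collected at 120 h. Each group held 3 libraries of poly-A RNA, described in the labels as biological replicates, with about 30 gastruloids pooled in each. Since gastruloids collected at one age had spent a longer time in the gel when embedded at 72 h, the time of embedding and the time in the gel cannot be told apart.

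BMP ligands are secreted dimers that bind paired type I and type II serine/threonine kinase receptors. The receptors phosphorylate SMAD1, SMAD5 and SMAD9, which enter the nucleus with SMAD4 and switch on a small set of direct targets. These include the Id genes, which encode inhibitors of basic helix-loop-helix transcription factors, Smad6 and Smad7, which encode inhibitory SMADs that feed back on the receptors, and the homeobox gene Msx2. In the embryo, BMP signals pattern mesoderm and ectoderm and support the heart field, and the antagonists Noggin and Chordin limit them.

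The sequences before a RefSeq transcription start are shown for the members whose windows begin outside the gene's annotated exons. Of these members, Smad6, Bmp4 and Bmp5 rose with early embedding in 1.0 mM gels and Id2 fell in 1.5 mM gels, as described further on. They are given 5′ to 3′ on the strand of the gene, from RefSeq (GRCm38.p6). A window was found for 6 of the 10 members (Id2, Id3, Smad6, Msx2, Bmp4 and Bmp5). The windows of Id3 and Msx2 begin within exons in GENCODE and are not printed. The Smad6 window is chr9:64022060-64022309 (minus strand), that of Bmp4 is chr14:46390670-46390919 (minus strand), and that of Bmp5 is chr9:75775115-75775363 (plus strand). For Id2 the printed part, before the first exon base in its window, is chr12:25096254-25096342 (minus strand). This part lies within the annotated span of Id2, 25093799 to 25097140, and so is not upstream of the annotated gene. Capitals mark the 2 GC-rich letter strings GGCGCC and GGAGCC on either strand, letters known from BMP-responsive elements.
Smad6: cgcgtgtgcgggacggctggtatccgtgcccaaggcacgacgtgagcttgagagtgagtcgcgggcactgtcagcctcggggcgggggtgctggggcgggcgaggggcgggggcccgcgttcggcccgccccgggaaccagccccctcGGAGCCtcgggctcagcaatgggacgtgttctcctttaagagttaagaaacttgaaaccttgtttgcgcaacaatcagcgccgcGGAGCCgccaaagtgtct
Bmp4: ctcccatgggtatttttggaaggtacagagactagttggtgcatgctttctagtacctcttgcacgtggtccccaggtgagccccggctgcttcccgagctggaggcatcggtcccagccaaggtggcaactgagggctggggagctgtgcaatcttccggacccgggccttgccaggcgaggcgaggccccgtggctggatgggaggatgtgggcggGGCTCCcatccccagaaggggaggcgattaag
Bmp5: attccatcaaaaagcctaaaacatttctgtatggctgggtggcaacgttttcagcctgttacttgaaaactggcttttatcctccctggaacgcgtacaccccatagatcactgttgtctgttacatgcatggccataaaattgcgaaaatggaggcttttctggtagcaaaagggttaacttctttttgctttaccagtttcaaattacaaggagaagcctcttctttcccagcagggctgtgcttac
Id2: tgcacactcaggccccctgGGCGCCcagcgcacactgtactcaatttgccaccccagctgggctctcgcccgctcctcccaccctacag
Among windows of 250 bases before a RefSeq start, GGAGCC or its reverse complement was present in 5 of the 6 members with a window. It was present in 26% of all 32851 RefSeq windows of that length. Of these 5 members, Id2, Id3 and Msx2 have windows within the annotated span of the gene. Only the windows of Smad6 and Bmp4 lie upstream of it, so the count is not one of upstream sequence alone. The Bmp5 window had no match to either string. GGCGCC was present in the Id2 window alone, and in 9.59% of all windows. The short SMAD-binding letters GTCT, which do not overlap these strings, were present in 6 of 6 windows and in 82.9% of all. These are matches of letters, and binding was not measured.

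Total counts ran from 23011791 to 27609422 per library, so that counting error was small beside the spread between replicates for most of these genes. Levels per library are CPM (the count of a gene scaled to a common library total) on TMM-scaled library totals. Differences are log2 fold changes from edgeR's quasi-likelihood test with Benjamini-Hochberg adjustment over all genes tested. The largest gene of each library held 0.88 to 6.12% of its counts. CT010467.1 held 6.12% in 72 h, 1.5 mM replicate 1 and 4.21% in 96 h, 1.5 mM replicate 2. In the other libraries the largest gene held at most 2.67%. The effect of this on the levels given here was not tested. A pair of libraries stood apart in these genes. Replicate 3 of the 96 h, 1.0 mM group was the lowest of its group in all 10 genes, and replicate 2 of the 96 h, 1.5 mM group was the highest of its group in all 6 targets. Replicate 3 of the latter group was also the lowest of its group in all 10 genes, and closer to its neighbours in every gene but Bmp7. For part of the results, values are given without 96 h, 1.0 mM replicate 3, without 96 h, 1.5 mM replicate 2, or without both.

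Compared per transcript length, in the FPKM values of the authors, the 3 Id genes were the most abundant members. The mean over the 12 libraries was 136 FPKM for Id3, 112 FPKM for Id2 and 109 FPKM for Id1. Bmp4 followed at 20.1 FPKM and Bmp7 at 15.5 FPKM, then the inhibitory SMADs Smad6 at 10.3 FPKM and Smad7 at 7.90 FPKM. Bmp5 had 7.78 FPKM, Msx2 4.85 FPKM and Bmp2 4.05 FPKM. The ranges of neighbours in this order overlapped over libraries, as for Id2 (79.1 to 186 FPKM) and Id1 (46.0 to 175 FPKM), while the lowest Id value of 46.0 FPKM lay above the highest ligand value of 42.4 FPKM. With counts divided by exonic length in place of FPKM, Id1 and Id2 changed places, as did Msx2 and Bmp2.

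The first question was whether the time of embedding changed the ligands. All 4 ligand genes were higher after embedding at 72 h in 1.0 mM gels, by 1.99- to 3.52-fold, and 3 of the 4 also rose in 1.5 mM gels. In 1.0 mM gels, 7 of the 10 members passed the adjusted threshold of 0.05, all of them higher at 72 h, against 9.24% of all genes tested (5.97% higher at 72 h). Of these 7, 5 had a log2 fold change above 1, which 4.3% of all genes reached in either direction. In 1.5 mM gels 4 members passed, against 19.3% of all genes, with 3 higher at 72 h (10.4% of genes) and 1 lower (8.98%). A single member there, Bmp5, also had a log2 fold change above 1, as did 3.18% of genes. The median log2 fold change over the 10 members was 1.06 in 1.0 mM gels and 0.19 in 1.5 mM gels, and that over all genes was -0.01 in both.

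**Figure D1:**
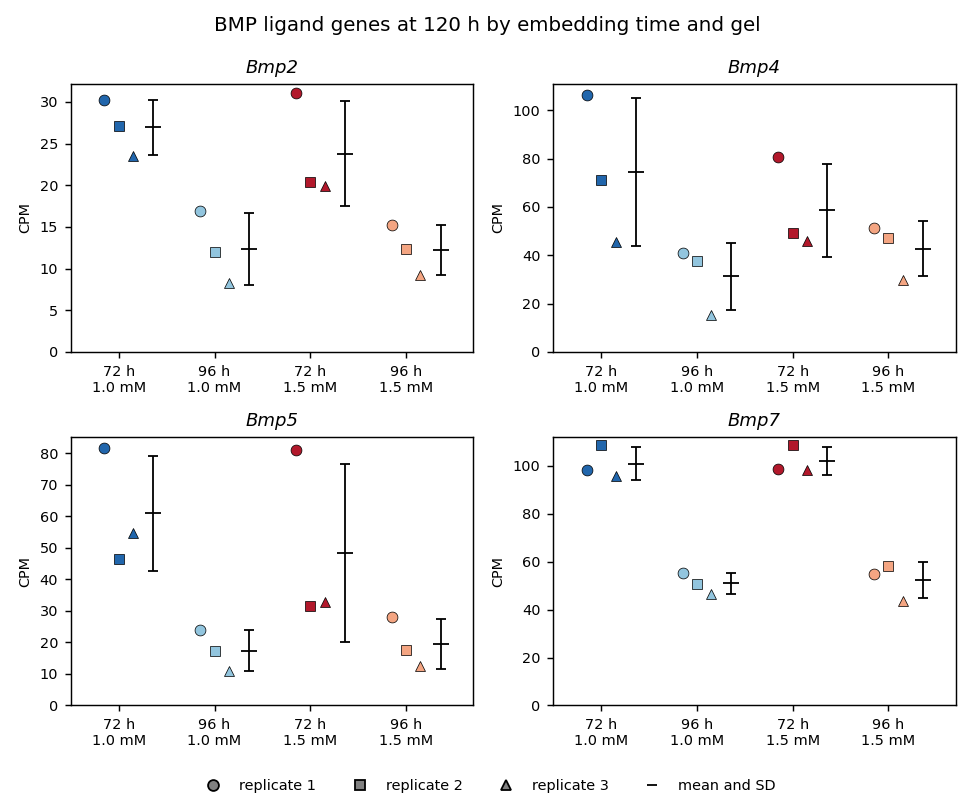
Levels of the 4 BMP ligand genes (y axis, CPM) in each of the 12 libraries at 120 h, by embedding time and gel concentration (x axis). Points are libraries, with the marker shape giving the replicate number, and bars show the mean and SD of 3 libraries. In 1.0 mM gels every 72 h library lies above every 96 h library for all 4 genes.

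Bmp2 (chromosome 2, 133552159 to 133562885) encodes a ligand with roles in the heart field and in ectoderm. In 1.0 mM gels it stood at 30.2, 27.1 and 23.6 CPM in the 72 h replicates 1 to 3, and at 16.9, 12.0 and 8.24 CPM in the 96 h replicates. Among libraries from 1.5 mM gels, those of 72 h had 31.1, 20.4 and 19.9 CPM and those of 96 h had 15.2, 12.4 and 9.19 CPM. Every early library was above every late one in both gels. The rise of Bmp2 was 1.13 on the log2 scale in 1.0 mM gels (SE 0.211, adjusted p = 0.00681) and 0.95 in 1.5 mM gels (SE 0.214, adjusted p = 0.0162). The call in 1.5 mM gels was lost without 96 h replicate 2 or 96 h replicate 3, with an adjusted p of up to 0.0589.

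Bmp7 (chromosome 2, 172868012 to 172940321) encodes a ligand that can pair with BMP2 or BMP4. It had the closest replicates of the ligands. Bmp7 in 1.0 mM gels stood at 98.3, 109 and 95.5 CPM after embedding at 72 h and at 55.4, 50.5 and 46.7 CPM after embedding at 96 h. Its values in 1.5 mM gels were 98.8, 109 and 98.0 CPM at 72 h and 54.7, 58.0 and 43.7 CPM at 96 h. The groups were far apart in both gels and nearly the same between gels. The rise of Bmp7 with early embedding (log2) was 0.99 in 1.0 mM gels (SE 0.0895, adjusted p = 0.000124) and 0.96 in 1.5 mM gels (SE 0.102, adjusted p = 0.00145). Bmp7 passed the threshold in all 13 alternative settings in each gel.

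Bmp5 (chromosome 9, 75775364 to 75900310) encodes a ligand of the same subgroup as BMP7. It had the largest difference among the ligands in 1.0 mM gels, at 81.5, 46.4 and 54.8 CPM after embedding at 72 h and 23.9, 17.2 and 11.1 CPM after embedding at 96 h. The log2 fold change was 1.81 (SE 0.257, adjusted p = 0.00165). Bmp5 in 1.5 mM gels had 80.9, 31.5 and 32.9 CPM at 72 h and 28.1, 17.7 and 12.4 CPM at 96 h. Replicate 1 was far above the other two 72 h libraries, and the groups did not overlap. The log2 fold change of 1.31 (SE 0.386, adjusted p = 0.0424) fell to 0.72 without 72 h replicate 1, and the call was lost without that library, without 96 h replicate 2 or 96 h replicate 3, and with DESeq2 or limma-voom.

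Bmp4 (chromosome 14, 46383520 to 46390669) encodes the ligand best known for ventral mesoderm. Bmp4 in 1.0 mM gels stood at 107, 71.3 and 45.7 CPM at 72 h and at 41.0, 37.5 and 15.3 CPM at 96 h, with the lowest early library just above the highest late one. The log2 fold change was 1.26 (SE 0.340, adjusted p = 0.0400), and the call was lost without 72 h replicate 1, 72 h replicate 2, 96 h replicate 2 or 96 h replicate 3 (0.91 without 72 h replicate 1), and with DESeq2. Bmp4 in 1.5 mM gels stood at 80.7, 49.2 and 46.1 CPM at 72 h and 51.3, 47.1 and 29.8 CPM at 96 h, and the groups overlapped. The log2 fold change of 0.45 (SE 0.238, adjusted p = 0.208) did not pass, but with replicate number as a block it was 0.45 with an adjusted p of 0.0226. Bmp4 overlaps the antisense gene Gm15222, which had 186 to 576 counts per library. The strand setting of the counts is not given in the sources used here, so that the share of reads from each strand is uncertain.

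The cell type markers measured in the same libraries moved with embedding time as well. The summed level of 7 cardiac mesoderm markers (Gata4, Gata6, Hand2, Tbx5, Nkx2-5, Tbx20 and Tnnt2) was 372 to 611 CPM in the 72 h libraries and 54.3 to 137 CPM in the 96 h libraries in 1.0 mM gels. The same sum in 1.5 mM gels was 303 to 536 CPM at 72 h and 133 to 212 CPM at 96 h. All 7 rose at 72 h in 1.0 mM gels and 5 of 7 in 1.5 mM gels, against 5.97% and 10.4% of all genes. Replicate 1 had the highest sum of both 72 h groups, as it did for Bmp2, Bmp4 and Bmp5, while Bmp7 was highest in replicate 2 of both. The 96 h, 1.0 mM replicate 3 had the lowest sum of its group, as it did for all 4 ligands. The sum of 6 somitic mesoderm markers went the other way, with 109 to 249 CPM in the 6 libraries embedded at 72 h and 374 to 599 CPM in the 6 embedded at 96 h. Meox1 held most of it, and Msgn1 was near 0. Of the 5 genes of this list tested, 4 fell in 1.0 mM gels and 3 in 1.5 mM gels, and 0 rose. Of all genes, 9.24% and 19.3% passed in either direction. The part of cell composition in the ligand levels was not tested. In bulk RNA, more cells of a type and more RNA per cell cannot be told apart.

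**Figure D2:**
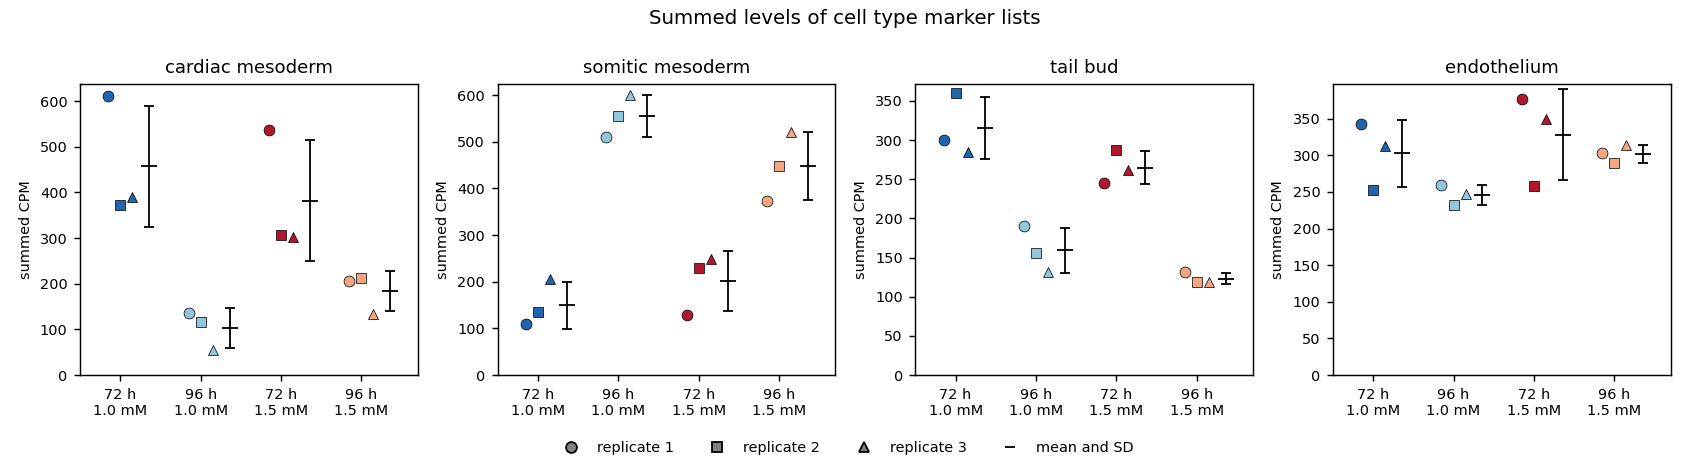
Summed CPM (y axis) of the marker lists of cardiac mesoderm, somitic mesoderm, tail bud and endothelium in each library, by embedding time and gel concentration (x axis). Points are libraries, with the marker shape giving the replicate number, and bars show the mean and SD of 3 libraries. The cardiac sum is higher and the somitic sum lower in every 72 h library than in any 96 h library.

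The sum of the 6 tail bud markers was 245 to 360 CPM at 72 h and 119 to 190 CPM at 96 h over both gels, and T held most of it. Of its 5 genes tested, 2 rose and 1 fell in 1.0 mM gels, and 2 rose and 0 fell in 1.5 mM gels. In 1.0 mM gels the early and late group means were 5.14 and 7.40 CPM for Cdx2, and 0.417 and 2.06 CPM for Nkx1-2. The sum of the 6 surface ectoderm markers was 203 to 337 CPM at 72 h and 117 to 154 CPM at 96 h, and Krt8 and Krt18 held most of it. Of its 5 genes tested, 3 rose and 1 fell in 1.0 mM gels, and 2 rose and 2 fell in 1.5 mM gels. The more specific markers of that list were low, with Tfap2c at 1.34 and 4.55 CPM and Grhl3 at 0.724 and 1.55 CPM at 72 h and 96 h in 1.0 mM gels, and Trp63 was near 0. Extraembryonic markers summed to 0.846 to 19.8 CPM, with Tpbpa and Afp at 0 counts in all libraries.

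The target genes did not follow the ligands in a uniform way. Smad6, Smad7 and Msx2 rose with early embedding in 1.0 mM gels. Where the gel was at 1.5 mM, none of the 6 targets passed as higher at 72 h, and Id2 fell. The differences between the gels were themselves tested as an interaction, given further on, and did not pass.

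**Figure D3:**
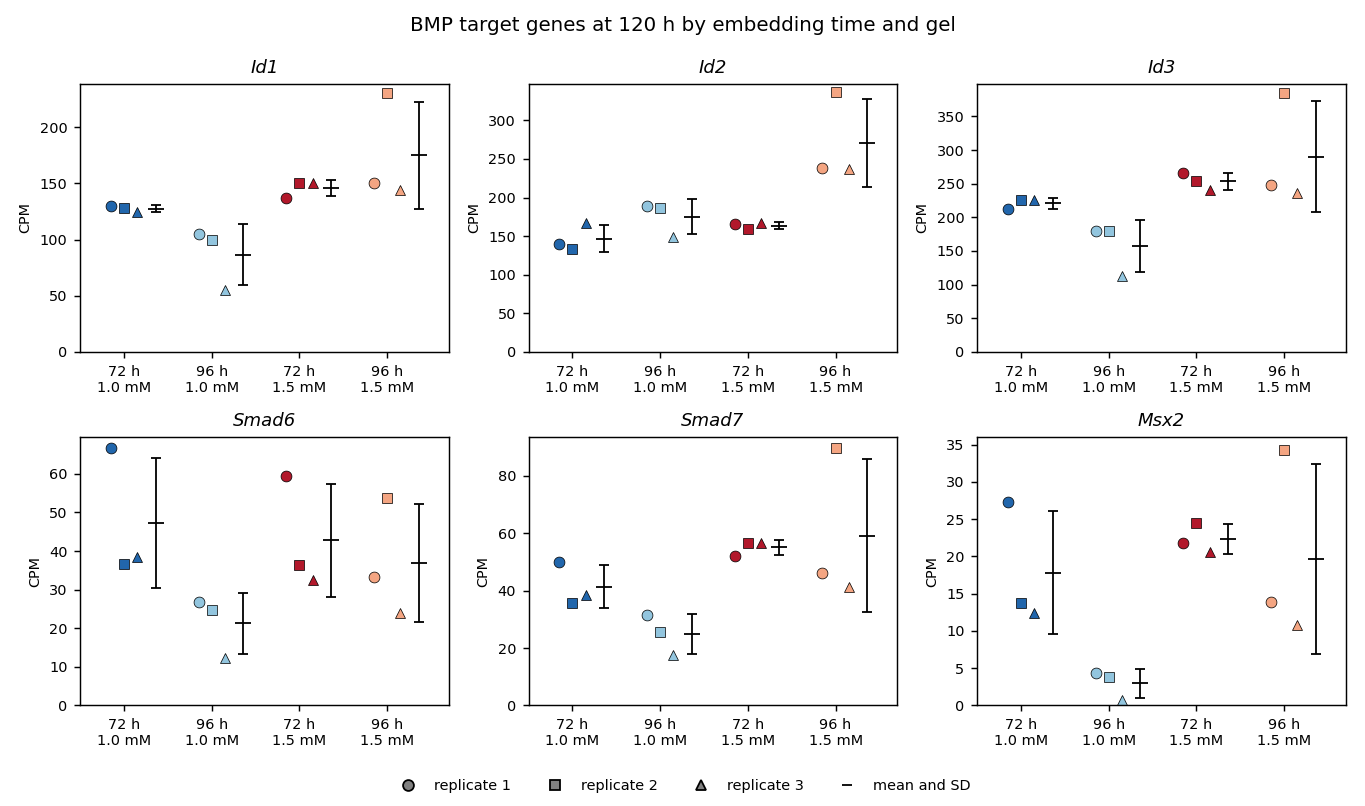
Levels of the 6 BMP target genes (y axis, CPM) in each of the 12 libraries at 120 h, by embedding time and gel concentration (x axis). Points are libraries, with the marker shape giving the replicate number, and bars show the mean and SD of 3 libraries. The 96 h, 1.5 mM replicate 2 is the highest library of its group in all 6 panels, and the 96 h, 1.0 mM replicate 3 is the lowest of its group.

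Id1 (chromosome 2, 152736251 to 152737410) and Id3 (chromosome 4, 136143497 to 136145392) are immediate targets of SMAD1 and SMAD5 that hold back differentiation. Id1 in 1.0 mM gels stood at 130, 128 and 124 CPM at 72 h and at 105, 99.2 and 55.5 CPM at 96 h. Id3 in 1.0 mM gels stood at 212, 226 and 226 CPM at 72 h and at 180, 180 and 113 CPM at 96 h. Both genes had separate groups, with the gap set by the tight 72 h libraries. Their log2 fold changes of 0.56 (SE 0.183, adjusted p = 0.0848) and 0.49 (SE 0.149, adjusted p = 0.0643) did not pass. Without 96 h replicate 3 they were 0.32 and 0.30. With DESeq2 Id3 passed. With replicate number as a block, both passed, Id1 with 0.61 and an adjusted p of 0.0124 and Id3 with 0.52 and an adjusted p of 0.0167.

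Id1 in 1.5 mM gels had 137, 150 and 150 CPM at 72 h and 150, 230 and 144 CPM at 96 h. Id3 in 1.5 mM gels had 265, 254 and 241 CPM at 72 h and 249, 385 and 237 CPM at 96 h. The embedding times overlapped for both genes, and a single 96 h library was well above the rest. The log2 fold changes were -0.27 for Id1 (95% interval -0.61 to 0.08, adjusted p = 0.251) and -0.20 for Id3 (-0.56 to 0.16, adjusted p = 0.404). Without the 96 h replicate 2, Id1 was at -0.02 and the sign of Id3 turned, to 0.06.

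Id2 (chromosome 12, 25093799 to 25097140) encodes another Id protein. It was the one member that was lower after early embedding in both gels. Id2 in 1.0 mM gels stood at 140, 133 and 166 CPM at 72 h and at 189, 187 and 149 CPM at 96 h, and the groups overlapped. Its log2 fold change was -0.25 (SE 0.112, adjusted p = 0.205) and did not pass. Id2 in 1.5 mM gels had 165, 159 and 167 CPM at 72 h and 238, 337 and 237 CPM at 96 h. Every early library was below every late one, and Id2 fell by 0.73 on the log2 scale (SE 0.124, adjusted p = 0.00634). Without 96 h replicate 2 the value was -0.54, still past the threshold.

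Smad6 (chromosome 9, 63953076 to 64022059) encodes the inhibitory SMAD that acts mainly on BMP receptors. Smad6 in 1.0 mM gels stood at 66.8, 36.8 and 38.5 CPM at 72 h and at 26.9, 24.9 and 12.2 CPM at 96 h. The groups did not overlap, and replicate 1 was the highest early library. Smad6 rose by 1.16 on the log2 scale (SE 0.281, adjusted p = 0.0252), and the call was lost without 96 h replicate 2 or 96 h replicate 3 and with DESeq2. Smad6 in 1.5 mM gels had 59.4, 36.3 and 32.5 CPM at 72 h and 33.2, 53.9 and 24.0 CPM at 96 h. These groups overlapped, with a log2 fold change of 0.20 (95% interval -0.45 to 0.86, adjusted p = 0.660). Without 96 h replicate 2 the value was 0.575, and without 72 h replicate 1 it was -0.112.

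Smad7 (chromosome 18, 75367529 to 75395935) encodes the inhibitory SMAD that also acts on TGFβ and Activin receptors. Smad7 in 1.0 mM gels stood at 50.0, 35.7 and 38.4 CPM at 72 h and at 31.4, 25.7 and 17.7 CPM at 96 h, with no overlap. Smad7 rose by 0.74 on the log2 scale (SE 0.190, adjusted p = 0.0328), and the call was lost when 72 h replicate 1 or 3, or 96 h replicate 2 or 3, was left out, and in a single fit of all 12 libraries (adjusted p = 0.0803). Without 96 h replicate 3 the value was 0.54. Smad7 in 1.5 mM gels had 52.2, 56.5 and 56.5 CPM at 72 h and 46.3, 89.8 and 41.2 CPM at 96 h. The late libraries lay on both sides of the early ones, and the log2 fold change was -0.11 (95% interval -0.65 to 0.44, adjusted p = 0.790). Its sign turned without 96 h replicate 2, to 0.327, and it was -0.309 without 96 h replicate 3.

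Msx2 (chromosome 13, 53466884 to 53473074) encodes a homeobox repressor of the limb, neural crest and heart field. It had the largest difference of the 10 genes in 1.0 mM gels, at 27.3, 13.7 and 12.4 CPM at 72 h and at 4.41, 3.77 and 0.772 CPM at 96 h. The lowest early library was well above the highest late one. Msx2 rose by 2.59 on the log2 scale (SE 0.463, adjusted p = 0.00551). This was 2.12 without the 96 h replicate 3, and Msx2 passed in all 13 alternative settings. Msx2 in 1.5 mM gels had 21.8, 24.5 and 20.6 CPM at 72 h and 13.9, 34.3 and 10.8 CPM at 96 h. The late libraries of replicates 1 and 3 lay below the early ones and that of replicate 2 above, and the log2 fold change was 0.18 (95% interval -0.61 to 0.96, adjusted p = 0.753). Without 96 h replicate 2 it was 0.85 with an adjusted p of 0.0175.

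**Figure D4:**
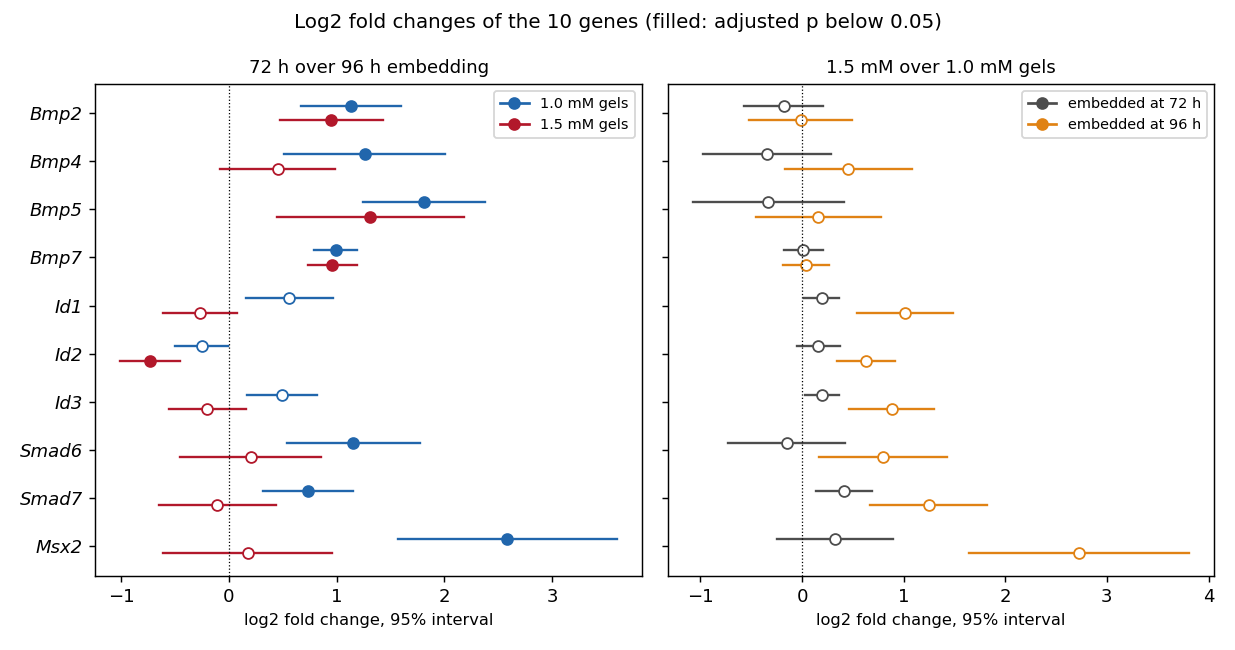
Log2 fold changes (x axis) of the 10 genes (y axis) with 95% intervals from edgeR, for 72 h over 96 h embedding in each gel (left) and for 1.5 mM over 1.0 mM gels at each embedding time (right). Filled points had an adjusted p below 0.05: 7 in 1.0 mM gels, 4 in 1.5 mM gels and 0 between the gels at either embedding time.

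Counting libraries rather than tests, 9 of the 10 members in 1.0 mM gels had every 72 h library above every 96 h library, as did 14.4% of 16388 genes. In 1.5 mM gels this held for 3 members (19.5% of genes), and 1 member, Id2, had every 72 h library below every 96 h library (19.8%). With both gels in a fit of all 12 libraries, 6 members changed with embedding time, against 31.1% of all genes (16.2% higher and 14.8% lower at 72 h). These were Bmp2 (1.04), Bmp4 (0.85), Bmp5 (1.56), Bmp7 (0.98) and Msx2 (1.24) upwards and Id2 (-0.49) downwards, on the log2 scale. Of these 6, 3 exceeded a log2 fold change of 1, as did 4.66% of genes. The Msx2 call (adjusted p = 0.0491) was held in 8 of 18 alternative settings, that of Bmp4 (adjusted p = 0.0224) in 16, being lost without 72 h, 1.5 mM replicate 1 or 96 h, 1.5 mM replicate 3, and the other 4 in all 18.

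The second question was whether gel concentration changed these genes. After embedding at 72 h it made little difference. No member passed, nor did any other gene in edgeR (0% of 15563). The log2 fold changes of 1.5 mM over 1.0 mM ran from -0.35 for Bmp4 to 0.41 for Smad7. The targets Id1 (0.19), Id3 (0.20) and Smad7 (0.41), 3 in all, had an unadjusted p below 0.05 and groups that did not overlap. Of all genes, 6.9% had such a p (4% as higher in 1.5 mM gels) and 5.91% had every 1.5 mM library above every 1.0 mM library. Their adjusted p was 0.698. DESeq2 called 0 members among 12 genes and limma-voom called no gene. Without a filter on low counts Smad7 passed, among 1.13% of genes.

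After embedding at 96 h the estimates for the targets were higher in 1.5 mM than in 1.0 mM gels and those for the ligands were smaller, though none passed. The log2 difference was 1.01 for Id1 (SE 0.215), 0.63 for Id2 (SE 0.131), 0.88 for Id3 (SE 0.192), 0.80 for Smad6 (SE 0.290), 1.25 for Smad7 (SE 0.264) and 2.73 for Msx2 (SE 0.499). That of the ligands was -0.01 for Bmp2, 0.45 for Bmp4, 0.16 for Bmp5 and 0.04 for Bmp7. The 95% interval of Bmp4 (-0.172 to 1.078) overlapped that of the target Smad6 (0.165 to 1.427). None of the 10 passed the adjustment, with adjusted p from 0.122 for Msx2 to 0.995 for Bmp2, and 0% of the 15861 genes did in edgeR. All 6 targets and 0 of 4 ligands had an unadjusted p below 0.05, as did 9.95% of genes (5.04% as higher in 1.5 mM gels). In 5 of the 6 targets, Smad6 being the exception, every 1.5 mM library was above every 1.0 mM library, which held for 7.37% of genes.

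Other settings changed this count. DESeq2 called 0 members among 96 genes and limma-voom 0 among 2 genes, while edgeR without a filter on low counts called 7 members (Bmp4 and all 6 targets) among 1.14% of genes. With replicate number as a block edgeR called the same 7 among 1.82% of genes, where same-numbered libraries correlated at 0.095 to 0.411 in their deviations. The differences were smaller with both libraries that stood apart left out, an alternative added after seeing the data. They were then 0.53 for Id1, 0.34 for Id2, 0.44 for Id3, 0.15 for Smad6, 0.62 for Smad7 and 1.60 for Msx2, with 1 member, Msx2, past the threshold (adjusted p = 0.0492). Without 96 h, 1.5 mM replicate 3 alone, Smad7 and Msx2 passed. The cardiac marker sums of the 96 h groups, 54.3 to 137 CPM in 1.0 mM and 133 to 212 CPM in 1.5 mM gels, differed in the same direction with a small overlap. No cardiac marker passed between these groups, and 5 of 7 had an unadjusted p below 0.05, against 9.95% of all genes. The part of cell composition was not tested.

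The interaction asked whether the effect of embedding time differed between the gels. The difference of log2 fold changes, 1.5 mM minus 1.0 mM, was below 0 for all 10 members, from -2.40 for Msx2 (SE 0.666) to -0.02 for Bmp7 (SE 0.142). It was -0.82 for Id1, -0.47 for Id2, -0.68 for Id3, -0.95 for Smad6 and -0.83 for Smad7, and -0.17, -0.80 and -0.49 for Bmp2, Bmp4 and Bmp5. None passed the adjustment (adjusted p of 0.953 to 0.990), and neither did any of the 16388 genes tested (0%). All targets but Smad6, 5 in all, had an unadjusted p below 0.05, against 4.32% of genes. DESeq2 called 0 members among 2 genes, limma-voom called no gene, and edgeR without a filter called 7 members among 0.758% of genes. With both libraries that stood apart left out, the values were -0.34 for Id1, -0.175 for Id2, -0.24 for Id3, -0.30 for Smad6, -0.21 for Smad7 and -1.27 for Msx2. Those of Bmp4 and Bmp5 were -0.40 and -0.31, and those of Bmp2 (0.058) and Bmp7 (0.118) turned positive. No gene passed in that fit.

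Gel concentration across both embedding times gave log2 differences of 0.60 for Id1, 0.40 for Id2, 0.54 for Id3, 0.83 for Smad7 and 1.40 for Msx2, and of -0.10 to 0.05 for the ligands. No member passed (adjusted p of at least 0.153, the value of Smad7), against 0.0305% of all genes. These 5 targets had an unadjusted p below 0.05, as did 12.7% of genes. DESeq2 called Id2 and limma-voom called 0 members among 4 genes.

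**Figure D5:**
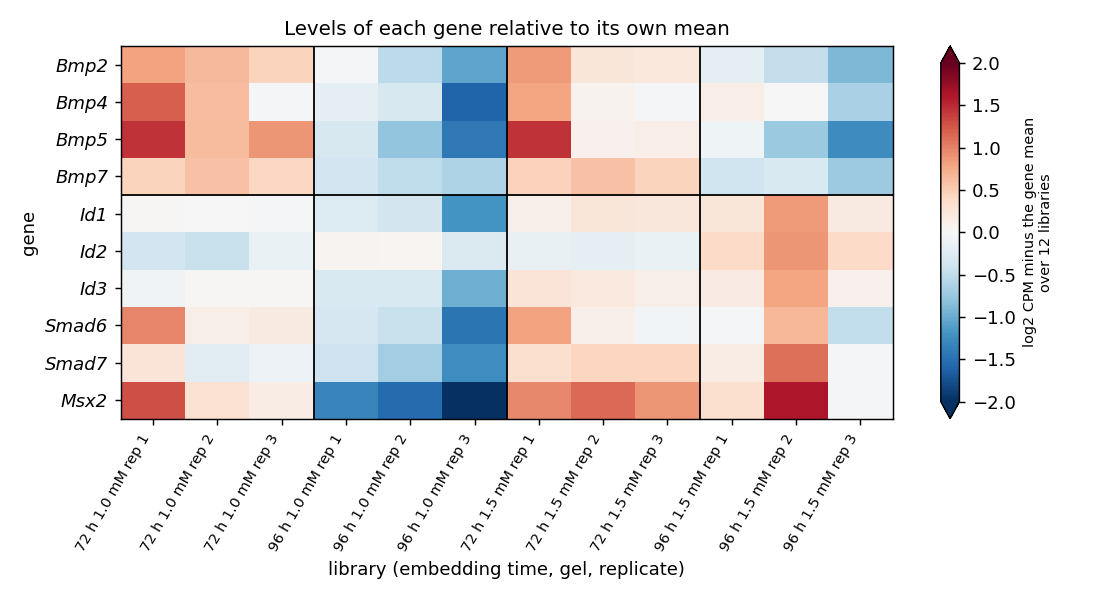
Log2 CPM of each gene (rows) in each library (columns) minus the mean of that gene over the 12 libraries, with black lines between groups and between ligands and targets. Colours are cut at 2 on either side. Ligands are above their mean in most 72 h libraries and below it in most 96 h libraries, and the 96 h, 1.0 mM replicate 3 is the lowest of the 12 for every gene but Bmp7 and Id2.

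Over the 12 libraries the members fell into profiles that can be described by the root mean square difference of their centred log2 CPM. The closest pair was Id1 and Id3, at 0.10, and Smad7 was nearest to Id1, at 0.20. Smad6 was closer to the ligand Bmp4 (0.27) than to Smad7 (0.40), and its nearest gene overall was Smad9 (0.23), which encodes a receptor-activated SMAD. Bmp2 and Bmp7 were 0.27 apart. The nearest genes to Bmp4 were Gm34030 (0.16), the ligand gene Bmp6 (0.16) and Rubie (0.17), a non-coding RNA gene upstream of Bmp4. The nearest genes to Bmp5 were Mme (0.18) and Mef2c (0.24), the latter a transcription factor of the heart and endothelium. Msx2 stood farther from any other gene, with its paralog Msx1 (0.51), Tbx3 (0.61) and Hand1 (0.62) as the nearest. With FPKM in place of CPM, Bmp6, Mme, Smad9 and Hand1 were no longer among the 3 nearest genes, while Gm34030, Rubie, Mef2c, Msx1, Tbx3, the pair of Id1 and Id3, and Id1 for Smad7 were. For 5 of the 10 members fewer than 2 of the 3 nearest genes were shared between the units. These distances are descriptions over libraries that share their groups.

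The other genes of the pathway were counted from lists chosen with earlier results of these data known. Between embedding times, 9.24% of all genes tested passed in 1.0 mM gels and 19.3% in 1.5 mM gels, for comparison with each list. Of 11 other BMP and GDF ligand genes, 6 were tested in each gel. With 1.0 mM gels Bmp6 (1.24) and Gdf2 (1.53) rose and Gdf3 (-2.23) fell with early embedding, on the log2 scale. With 1.5 mM gels Bmp8a (1.44) rose and Gdf3 (-2.05) fell, and Bmp6 at 0.66 had an adjusted p of 0.122, or 0.0371 with replicate number as a block. The Bmp6 call in 1.0 mM gels was lost without any 1 of the 6 libraries other than 72 h replicate 3 and 96 h replicate 2 (adjusted p of up to 0.129), and the Bmp8a call without any but 72 h replicate 1 (up to 0.116) and with DESeq2. Gdf3, a Nodal-related ligand of pluripotent cells, was the one gene of this list that passed in both gels.

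Of 7 receptor genes, 0 passed in edgeR in 1.0 mM gels, with 3 at an unadjusted p below 0.05, against 22.9% of all genes. With replicate number as a block, Bmpr2 (0.37, adjusted p = 0.0266), Bmpr1a (0.28, adjusted p = 0.0490) and Acvrl1 (-0.47, adjusted p = 0.0292) passed there. The type II receptor genes Acvr2b (0.69) and Bmpr2 (0.57) and the type I receptor gene Bmpr1a (0.36) rose in 1.5 mM gels, and Acvrl1 (-0.80), an endothelial type I receptor, fell. The Bmpr1a call was lost without 96 h replicate 2 or 3 and the Acvrl1 call without 96 h replicate 3. Of 4 signalling SMAD genes, 1 passed in each gel, against 9.24% of all genes in 1.0 mM and 19.3% in 1.5 mM gels. Smad9 rose in 1.0 mM gels (1.31) and Smad4, the common partner, in 1.5 mM gels (0.19). Smad9 had 0.34 in 1.5 mM gels (adjusted p = 0.422). The Smad9 call was lost without 72 h replicate 1 or 96 h replicate 3, and the Smad4 call without any 1 library other than 72 h replicate 1 (adjusted p of up to 0.131).

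Of 12 secreted antagonist genes, 11 were tested in each gel. Nog (1.51), Bmper (1.82) and Chrd (0.63) rose with early embedding in 1.0 mM gels, and Fst (-0.77), which binds Activins and BMPs, fell. Bmper (1.16), Chrd (0.63), Twsg1 (0.30) and Cer1 (1.70) rose in 1.5 mM gels and Grem1 (-0.73) fell. Nog was at 0.77 there (adjusted p = 0.0659) and passed with replicate number as a block (0.83, adjusted p = 0.00655). Chrd and Bmper, which encode chordin family proteins, passed in both gels. The Chrd call was lost without 96 h replicate 3 in 1.0 mM gels, and without 72 h replicate 2 or 96 h replicate 2 or 3 in 1.5 mM gels (adjusted p of up to 0.0915), and the Fst call without 96 h replicate 3. Of a list of 6 other inhibitors, 1 passed in each gel, against 9.24% of all genes in 1.0 mM and 19.3% in 1.5 mM gels. Bambi, a membrane pseudoreceptor, rose in 1.0 mM gels (0.97) and Nbl1, which encodes the secreted antagonist DAN, in 1.5 mM gels (0.69). The Nbl1 call was lost without any 1 library other than 72 h replicate 1 (adjusted p of up to 0.125).

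Of 11 other BMP target genes, 5 rose in 1.0 mM gels and 0 fell, where 9.24% of all genes passed (5.97% as higher). These 5 were Id4 (1.22), Msx1 (1.55), Tbx3 (1.49), Hand1 (2.15) and Gata2 (0.77). The Gata2 call was lost without any 1 library other than 72 h replicate 2 (adjusted p of up to 0.129) and with limma-voom. That of Hand1 was lost without 72 h replicate 1 or 96 h replicate 1 or 2 and with DESeq2, that of Tbx3 without 96 h replicate 3, and that of Msx1 with DESeq2. In 1.5 mM gels 2 of the 11 rose, Id4 (0.75) and Dlx6 (1.09), where 19.3% of all genes passed (10.4% as higher). The values of Msx1 (-0.05), Tbx3 (-0.08), Hand1 (0.26) and Gata2 (0.18) did not pass there. In the comparison of gels at 96 h, 7 of the 11 had an unadjusted p below 0.05, against 9.95% of all genes (5.04% as higher in 1.5 mM gels). There 0 of the 11 passed, with 1.85 for Msx1, 1.83 for Tbx3, 0.93 for Gata2 and 1.37 for Hand1 (adjusted p of 0.122 to 0.409). Hand1 is also expressed in cardiac and lateral mesoderm, and Gata2 in blood and endothelial progenitors.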

How the data were processed

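Bulk RNA-seq of the 12 libraries was analysed from the files the authors deposited. The authors trimmed reads with cutadapt 4.4 and mapped them to mm10 with STAR 2.7.10b, using Ensembl 102 gene models that they had modified. The deposited count table holds unnormalized counts of reads for each gene. FPKM values came from Cufflinks 2.2.1.3, run by the authors. A further deposited table holds the fold changes and adjusted p-values of the authors' own DESeq2 comparisons and was not used.

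The 36 mitochondrial genes were left out, as in the study. Library sizes were scaled by TMM after genes with low counts had been removed by filterByExpr (minimum count 10, minimum total 15). The counts were then fitted across all genes with edgeR 4.0.16 (glmQLFit, glmQLFTest, R 4.3.3), using 2 groups for pairwise comparisons and all 12 libraries otherwise. A gene passed at a Benjamini-Hochberg adjusted p below 0.05. Total counts of 23011791 to 27609422 per library leave replicate spread as the main limit of precision. Alternatives were DESeq2 1.42.0, limma-voom (limma 3.58.1), RLE size factors, no filter or 1 CPM in 3 libraries, a block for replicate number, the removal of each library in turn, and a single fit of all libraries. Profiles used log2 CPM with a prior count of 2. The fits were also run on simulated counts for the comparison in 1.0 mM gels, with the same spread for every gene and no library standing apart. That setting differs from these data, so it does not show how the fits handle libraries that stand apart.

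The labels number the replicates, and the block alternative took these numbers to pair libraries. The main tests were not paired. The deviations of same-numbered libraries from their group means, over the 500 most variable genes, correlated at 0.18 to 0.53 in 1.0 mM gels and 0.11 to 0.34 in 1.5 mM gels.

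The members and lists were chosen with earlier results of these data known. All members are named, and of the other pathway genes those that passed in a comparison of embedding time, at most 5 per list by p. Cer1, Grem1 and Dlx6 fall outside this limit and were named after their values were seen, and the alternatives were not run for them. Gene coordinates are those of mm10. Upstream sequences are from RefSeq.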

Additional observations from a re-analysis of the deposited data

How the results depend on the processing

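In 1.0 mM gels the count of members past the threshold between embedding times was 7 and ran from 4 to 7 with 1 library left out. Bmp2, Bmp5, Bmp7 and Msx2 remained in all 6 of these fits, and without 96 h, 1.0 mM replicate 2 or 3 the count was 4. DESeq2 called 6 and the replicate block 9, with Id1 and Id3 added. In 1.5 mM gels the count was 4, from 2 to 4 with 1 library left out (2 without 96 h replicate 3), 3 with DESeq2 or limma-voom, 5 with the replicate block, and 1 with a log2 fold change above 1 required as well. Over both gels that requirement left 3 of 6, and leaving out 1 library gave 4 to 8.

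Between gels the main counts were 0. Without a filter on low counts they were 1 at 72 h, 7 at 96 h, 6 over both times and 7 for the interaction. DESeq2 called 1 over both times. At 96 h the count ran from 0 to 2 with 1 library left out and was 1 with 2 libraries left out together. With replicate number as a block it was 7 at 96 h, among 1.82% of genes, and 0 at 72 h. Whether the numbers pair libraries, between gels or between embedding times, is not settled. Same-numbered libraries correlated at 0.095 to 0.411 between the gels at 96 h and at -0.02 to 0.23 at 72 h. They correlated at 0.19 to 0.44 between 72 h, 1.0 mM and 96 h, 1.5 mM. Between embedding times in 1.5 mM gels the lowest value was 0.106. The cause of these shifts was not tested.

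None of the values whose sign turned in these alternatives had passed the test. Between embedding times in 1.5 mM gels, the log2 values with 1 library left out ran from -0.327 to 0.058 for Id3, -0.112 to 0.575 for Smad6, -0.309 to 0.327 for Smad7, -0.115 to 0.847 for Msx2, -0.238 to 0.105 for Fst, -0.272 to 0.346 for Tbx3, -0.305 to 0.553 for Msx1 and -0.161 to 0.565 for Hand1. With limma-voom Tbx3 was at 0.008 and Msx1 at 0.10, and with the replicate block Msx1 was at 0.084. Between gels at 96 h, they ran from -0.237 to 0.279 for Bmp2, -0.194 to 0.458 for Bmp5 and -0.047 to 0.148 for Bmp7. Bmp2 was at 0.027 with limma-voom and 0.009 with the replicate block, and with 2 libraries left out together Bmp5 was at -0.018 and Bmp7 at -0.099. The interaction ran from -0.461 to 0.055 for Bmp2 and -0.132 to 0.047 for Bmp7, and was 0.058 and 0.118 with 2 left out. Apart from Id1, Id3, Bmp4 and the pathway genes given above, the block changed no call of a member between embedding times in either gel.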
